A study of Homo sapiens with 16 samples.

Results

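The genes described here are the chaperones of the cytosol and mitochondria that respond to or belong with the heat shock system, together with their co-chaperones and the CCT chaperonin. They were taken by symbol from a list, which was chosen with earlier results of these data known. All 42 were found among the 57820 genes of the deposited table of normalised counts. By place, 28 are cytosolic or nuclear, 6 are mitochondrial and 8 encode subunits of the cytosolic CCT ring. Of the 28, 17 belong to the HSP70 system, 7 to the HSP90 system, 2 to a small heat shock group and 2 are heat shock transcription factors.

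The 16 libraries were made by RNA sequencing of CUTLL1, KOPTK1 and HPB-ALL, 3 established human lines of T-ALL (acute lymphoblastic leukaemia of T cells) grown in serum-containing medium. The study targeted a long non-coding RNA that its labels name lnrCXCR4, either with lentivirus carrying CRISPR components or with antisense oligonucleotides (ASOs) put into the medium at 1 µM. The guide libraries were 1 non-targeting control and 2 targeted libraries in CUTLL1, the same in KOPTK1, and 2 controls and 2 targeted libraries in HPB-ALL. The ASO libraries were 1 scrambled-oligonucleotide control and 2 targeted libraries in each of CUTLL1 and KOPTK1. Titles number the targeted libraries 1 and 2 while descriptions call them replicates, so whether a number marks another guide or oligonucleotide could not be told. Nothing in the labels says that libraries of a group came from separate cultures, and p-values may then measure technical spread only.

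HSP70 proteins bind exposed hydrophobic stretches of unfolded proteins in cycles of ATP hydrolysis. J-domain proteins (DNAJ) bring substrates and start hydrolysis, and nucleotide exchange factors let the substrate go. HSP90 takes partly folded kinases and receptors from HSP70 and finishes them with its own co-chaperones, CCT folds actin and tubulin in a closed chamber, and HSP60 with its lid HSP10 does the like in the mitochondrial matrix. The transcription factor HSF1 induces many of these genes under heat or proteotoxic stress, by binding repeats of the letters GAA in alternating orientation, and in T-ALL it has been described downstream of NOTCH1.

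The libraries held between 34547469 and 72178929 reads, recovered from the step size of the normalised values. No row of the table is named lnrCXCR4, so its level was not checked. As bulk RNA, a lower value cannot separate fewer cells of a kind from less RNA per cell. The summed level of 10 T-lineage marker genes was 166624 to 178659.5 normalised counts in the 6 controls and 61799.7 to 77015 in the 10 targeted libraries, and none of the 10 markers was at 0. Of markers of other cell types, 5 B-lineage genes summed to 352 to 2667 in controls and 151 to 573 in targeted libraries, with 3 of them below 20 throughout. Summed levels of 6 myeloid genes were 4128 to 11762 and 2601 to 7577, with 4 below 20 throughout, and those of 7 epithelial and fibroblast genes 11.7 to 249.8 and 22.8 to 730.3, with 4 below 20. The 5 erythroid genes summed to at most 17.4, each below 20 in every library. Nearly all of the myeloid sum was AIF1 (2584 to 11750 over all libraries), with CD14 at most 32.4. Nearly all of the B-lineage sum was CD79A (125 to 2005) and CD79B (0 to 659). The part of these marker levels in the values below was not tested. Distances between libraries were measured as the mean chi-square per gene, where 1 is counting noise. They ran from 2.34 to 6.75 between libraries of 1 group, from 1.73 to 14.5 between guide and ASO libraries of the same line and role, and from 168 to 305 between control and targeted libraries of a line. Guide and ASO libraries of a line were thus about as close as libraries of 1 group, so that their likeness is not independent support. The lowest distances, 2.34 and 1.73, involve CUTLL1 ASO 1, whose read step was too near 1 to check.

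Promoter windows of RefSeq (build GRCh38.p14, 250 bases before to 50 after the start) were found for 35 of the 42 genes. The unmatched ones were ST13, HSPA14, FKBP4, HSPB11, HSF1, GRPEL1 and CCT6A. Both strands were searched for a strict form of the heat shock element, the units GAA, TTC and GAA in that order with any 2 bases between neighbouring units, and for CACGTG, the E-box of MYC and related factors, counting overlapping matches. The strict heat shock element was present in 4 of 35 windows (11.4%), against 0.487% of 27305 promoters of the same length. The 4 were HSPA8, DNAJB6, DNAJA1 and CHORDC1, the last with 3 overlapping matches. CACGTG was present in 4 of 35 windows (11.4%) against 7.43% of all promoters, and the 4 were HSPD1, HSPE1, HSPA9 and HSF2.

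The windows below are shown because they belong to members whose levels the results turn on. The first serves both mitochondrial chaperonin genes, HSPE1 and HSPD1, which are transcribed away from each other from starts 105 bases apart, so that their windows share 204 bases and the same CACGTG. The second belongs to HSPA9, and the last pair to HSPA8 and DNAJB6. Each is read 5′ to 3′ along the gene, with the match in capitals. HSPE1 lies at chr2:197500129-197500428 on the plus strand, HSPA9 at chr5:138575352-138575651 on the minus strand, HSPA8 at chr11:123062087-123062386 on the minus strand and DNAJB6 at chr7:157336754-157337053 on the plus strand.
HSPE1, CACGTG: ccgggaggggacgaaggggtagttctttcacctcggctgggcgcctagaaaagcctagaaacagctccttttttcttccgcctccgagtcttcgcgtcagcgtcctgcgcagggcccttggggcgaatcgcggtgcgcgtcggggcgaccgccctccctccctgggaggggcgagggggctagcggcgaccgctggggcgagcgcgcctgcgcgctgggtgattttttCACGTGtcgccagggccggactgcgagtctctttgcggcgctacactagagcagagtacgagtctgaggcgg
HSPA9, CACGTG: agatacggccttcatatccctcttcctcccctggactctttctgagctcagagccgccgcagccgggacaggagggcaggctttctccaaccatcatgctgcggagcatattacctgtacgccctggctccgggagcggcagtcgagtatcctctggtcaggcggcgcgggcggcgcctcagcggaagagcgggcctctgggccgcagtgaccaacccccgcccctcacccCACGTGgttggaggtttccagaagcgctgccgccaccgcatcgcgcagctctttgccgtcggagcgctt
HSPA8, heat shock element: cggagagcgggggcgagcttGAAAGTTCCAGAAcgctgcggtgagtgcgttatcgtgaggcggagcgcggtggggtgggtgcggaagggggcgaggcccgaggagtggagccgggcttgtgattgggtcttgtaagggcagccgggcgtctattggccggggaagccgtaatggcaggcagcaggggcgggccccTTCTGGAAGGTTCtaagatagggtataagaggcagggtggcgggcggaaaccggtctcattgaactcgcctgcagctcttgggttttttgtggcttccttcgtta
DNAJB6, heat shock element: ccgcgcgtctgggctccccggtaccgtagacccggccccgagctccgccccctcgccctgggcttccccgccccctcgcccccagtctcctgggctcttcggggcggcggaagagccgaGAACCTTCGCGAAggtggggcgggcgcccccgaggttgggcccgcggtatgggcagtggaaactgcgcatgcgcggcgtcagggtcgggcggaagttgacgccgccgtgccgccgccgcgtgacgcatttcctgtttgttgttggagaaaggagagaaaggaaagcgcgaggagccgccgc
Of the 4 genes with the strict heat shock element, 2 rose and 2 were not called with guides. Of the 30 tested members without that form 7 rose, as did 32.7% of all genes. The windows of HSPA1A, HSPA1B, HSPH1, DNAJB1, HSP90AA1 and BAG3 had no match to it. Looser forms were not searched for, so a window without a match may still hold a heat shock element. Of the 4 with CACGTG, HSF2 rose and 3 fell, of which HSPD1 and HSPE1 share 1 match. Of the 30 tested members without CACGTG 13 fell, as did 35% of all genes. A match of letters is a description of the window, and no binding was measured.

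In control libraries, levels per kilobase of exon spanned a wide range without HSPA1A and the HPB-ALL value of HSPA1B. HSPA8, the constitutive cytosolic HSP70, stood first, with 62545 in CUTLL1, 70929 in KOPTK1 and 56834 in HPB-ALL normalised reads per kilobase. The HSP90 pair followed, HSP90AB1 with 35109 in CUTLL1, 32064 in KOPTK1 and 36995 in HPB-ALL, and HSP90AA1 with 32657 in CUTLL1, 37303 in KOPTK1 and 30668 in HPB-ALL. Per kilobase their order was reversed in KOPTK1. That order rests on the exon lengths used, 4027 bases for HSP90AA1 and 2980 for HSP90AB1. Before division by length, HSP90AA1 had more counts than HSP90AB1 in the controls of every line. CCT7, CCT3 and HSPD1, the mitochondrial HSP60, came next, while DNAJB4, a class B J protein, was the 41st and HSPA1A the 42nd gene.

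**Figure D1:**
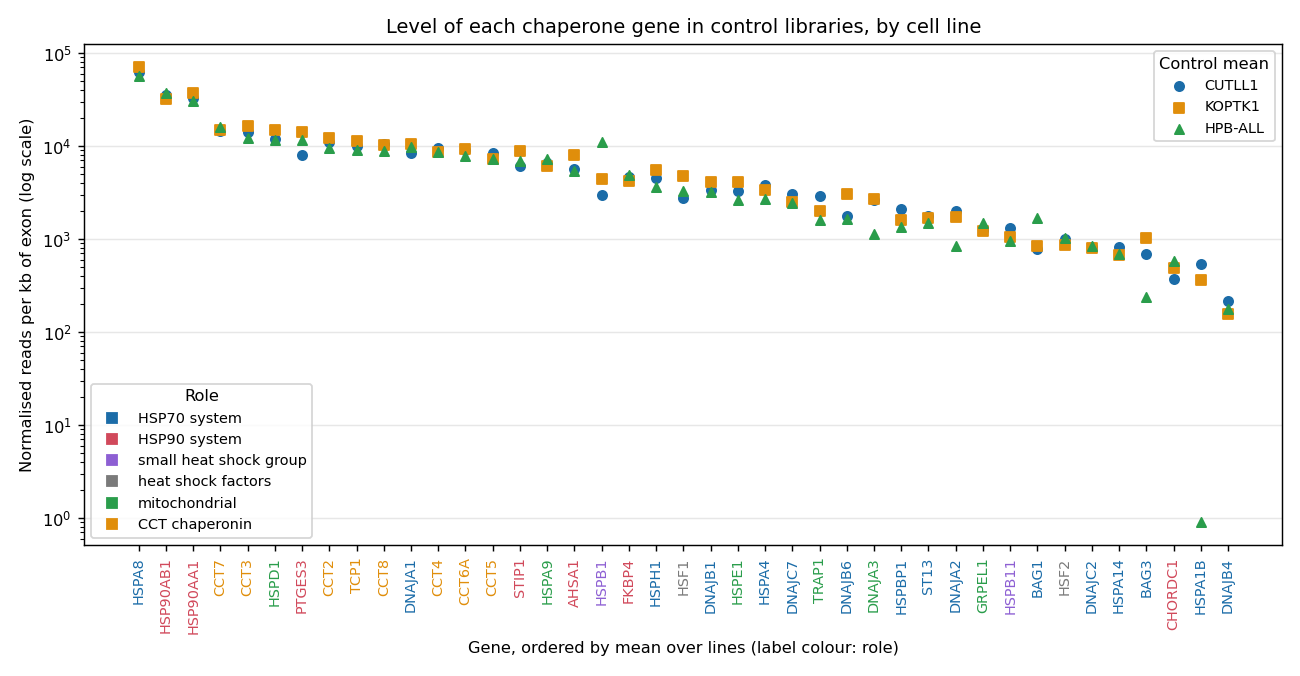
Mean normalised reads per kilobase of exon in the control libraries of each line (log axis), for 41 of the 42 genes in order of their mean over lines, with HSPA1A left out. HSPA8 stands highest in every line, HSPB1 is highest in HPB-ALL, and HSPA1B in HPB-ALL lies near 1.

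Control levels of 40 of 41 tested members differed among the lines (moderated F test of limma, adjusted p under 0.05), where 91.5% of all 14020 genes did. The exception was DNAJC2 (limma adjusted p = 0.188). The smallest p-values belonged to DNAJA2, DNAJB6, BAG3, HSPB1 and BAG1. DNAJA2, a class A J protein, read 6254 and 6302 in CUTLL1 controls, 5434 and 5403 in those of KOPTK1, with 2545 and 2694 for HPB-ALL (F = 806, limma adjusted p = 2.58e-11). DNAJB6, a J protein that holds back aggregation, read 5803 and 5919 in CUTLL1, 10221 and 10219 in those of KOPTK1, with 5481 and 5595 for HPB-ALL (F = 756, limma adjusted p = 3.34e-11). BAG3, an exchange factor tied to selective autophagy, was lowest in HPB-ALL at 621 and 596, against 1764 and 1761 in CUTLL1 and 2607 and 2602 in KOPTK1. HPB-ALL was thus low for DNAJA2 and BAG3. For BAG1, another exchange factor, it was highest, with 6355 and 6274 against 3055 and 2896 in CUTLL1 and 3189 and 3109 in KOPTK1. HPB-ALL controls were also highest for HSPB1, as given below.

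With guides, 30 of 41 tested members changed, 10 upward and 20 downward, where 67.7% of all 14069 genes did (32.7% higher, 35% lower). With ASOs, 31 of 41 changed, 10 upward and 21 downward, against 65% of 13712 genes (31.8% higher, 33.2% lower). The share called was thus near that of all genes, while calls leaned downward. The median log2 fold change of the members was -0.11 with guides and -0.13 with ASOs, against -0.03 and -0.01 over all genes. Both methods called 8 members higher and 18 lower, 0 were called in opposite directions, 4 were called with guides only, 5 with ASOs only and 6 with neither. The same counts were not made over all genes, so they are not read as a result about the members. Calls came from limma on log2(normalised count + 1) with a term for the line, over 4 control and 6 targeted guide libraries, and over 2 control and 4 targeted ASO libraries.

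By role, the downward calls took in all 6 mitochondrial genes with either method, and 5 of 8 CCT genes with either method, with no mitochondrial or CCT gene called higher. Under quantile scaling and under total-count scaling all 8 CCT genes were called lower with ASOs. Over all genes 35% fell with guides and 33.2% with ASOs, while 32.7% and 31.8% rose. The cytosolic groups were mixed. In the HSP70 system, 6 of 16 tested genes rose and 4 fell with guides, and 6 rose and 6 fell with ASOs. In the HSP90 system, 2 of 7 rose and 3 fell with guides, and 2 rose and 2 fell with ASOs. The share called was 62.5% with guides and 75% with ASOs in the HSP70 system, and 71.4% and 57.1% in the HSP90 system. It was 67.7% and 65% over all genes, so these counts are not read as a result about either system. The 2 ASO rises of the HSP90 system became 0 under quantile scaling. They became 1 under total-count scaling, with the replicate block, without the filter and with edgeR. Both ASO controls are numbered 1, so that block sets ASO 1 alone against the control. Without the KOPTK1 guide control, which leaves the contrasts of CUTLL1 and HPB-ALL, 1 of the 7 HSP90 genes rose and 1 fell with guides. Each of the small heat shock pair and of the heat shock factor pair had 1 gene up and 1 down with either method, the ASO rise of HSF2 being lost with the replicate block. Changes were mostly small: the lowest log2 fold change with guides was -1.11, for HSPBP1, and the highest 1.04, for DNAJB4.

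**Figure D2:**
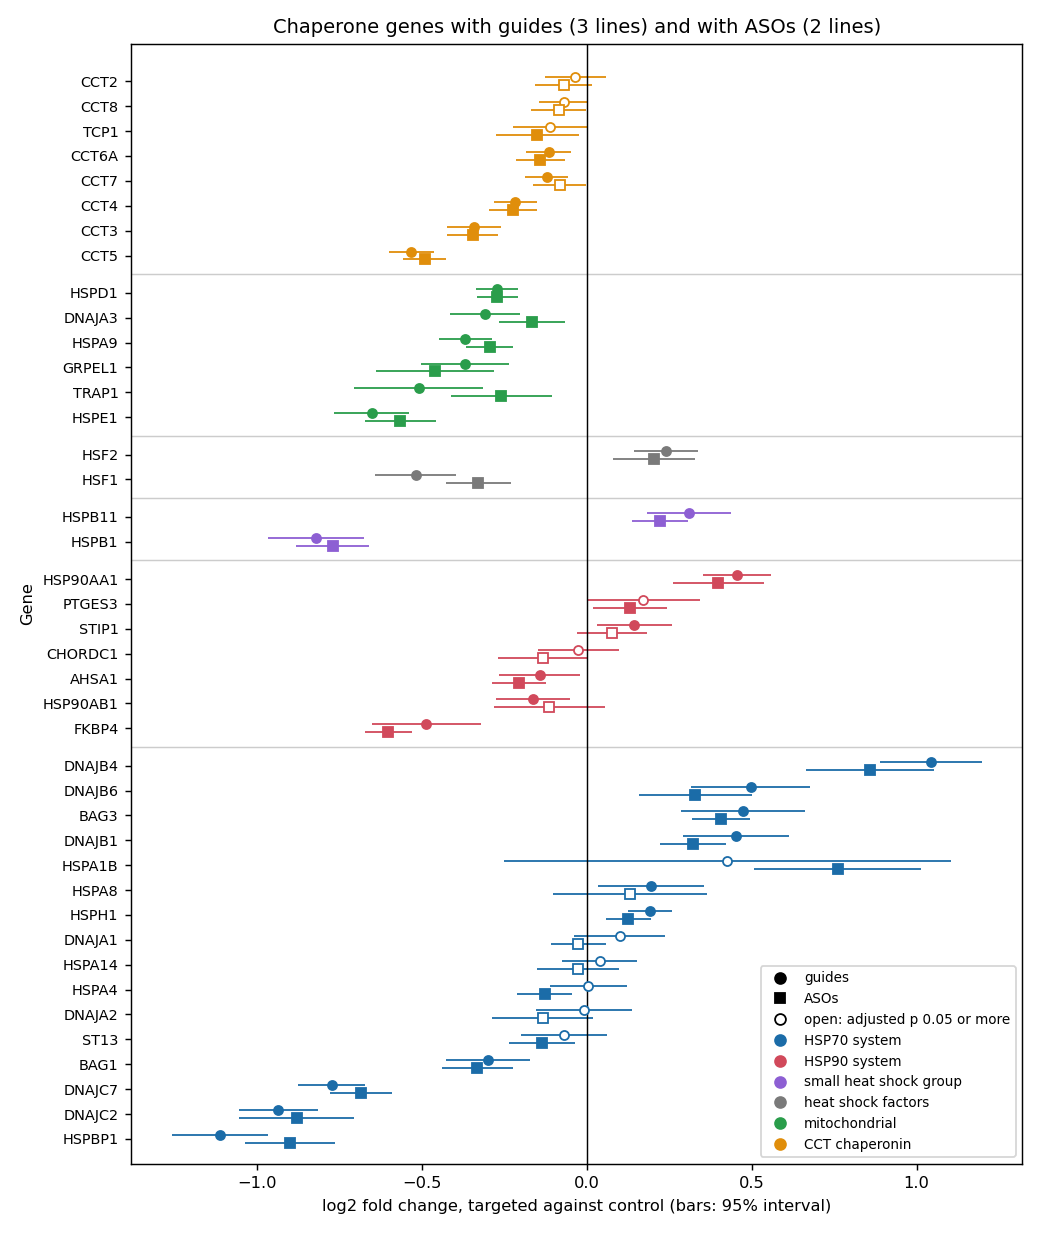
Log2 fold changes, targeted against control, of the 41 tested genes with guides (circles) and ASOs (squares), with 95% intervals and colours by role; open symbols have an adjusted p of 0.05 or more. All 6 mitochondrial genes lie left of 0, and DNAJB4 (1.04 with guides) and HSPBP1 (-1.11) are the extremes.

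Values by library are given below as normalised counts. For CUTLL1 and KOPTK1 they are the guide control and the ASO control, then the targeted libraries as guide 1, guide 2, ASO 1 and ASO 2. For HPB-ALL they are controls 1 and 2, then guides 1 and 2. Where a pooled value is given without the lone control of a line, that line no longer adds to the contrast. Such an ASO value is the effect in the other line, and such a guide value that of the remaining lines.

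HSPA8, which carries most HSP70 activity in unstressed cells, moved in opposite directions in different lines. HSPA8 read 168904 and 168715 in the CUTLL1 controls and 153821, 157408, 155280.1 and 159018 in the targeted libraries. In KOPTK1 HSPA8 read 194488 and 188385 against 250592, 243381, 243511 and 241562. In HPB-ALL HSPA8 read 153171 and 153618 against 191449 and 187335. Targeted libraries were thus below both controls in CUTLL1 and above them in KOPTK1 and HPB-ALL, with no overlap in any line. The guide effect was -0.12 in CUTLL1 (limma adjusted p = 0.0221), 0.34 in KOPTK1 (limma adjusted p = 1.41e-05) and 0.30 in HPB-ALL (limma adjusted p = 4.92e-06). With ASOs it was -0.10 in CUTLL1 and 0.36 in KOPTK1. Over the 3 lines HSPA8 rose by 0.19 on the log2 scale ± 0.071 with guides (limma adjusted p = 0.0341), while with ASOs the value was 0.13 ± 0.097 (limma adjusted p = 0.274). The ASO value was called in opposite directions without the CUTLL1 ASO control (0.36) and without that of KOPTK1 (-0.10), each of which leaves the contrast of the other line. Quantile scaling ended the guide call (0.00) and turned the ASO value to -0.12, but within each line the sign of HSPA8 was the same as deposited, and under quantile and total-count scaling. The pooled guide call was also lost without any 1 of the 4 HPB-ALL libraries, the KOPTK1 control or either KOPTK1 targeted guide library, with values of 0.14 to 0.19, and under total-count scaling (0.18). Without the CUTLL1 guide control the value was 0.32. In the annotation 17 pseudogenes carry the name of HSPA8.

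HSPA1A and HSPA1B encode nearly the same stress-inducible HSP70, and reads between them are uncertain: 72.6% of the 50-base windows of the HSPA1A transcript also occur in HSPA1B. In the GENCODE 29 annotation AL671762.1 overlaps 36.5% of the exon length of HSPA1B on the same strand. The CUTLL1 controls held 1360.1 and 1338 normalised counts of HSPA1B, and the targeted libraries 2749, 2461, 2654 and 2512. For HSPA1B in KOPTK1 the controls held 869 and 938 and the targeted libraries 1251, 1407, 1281 and 1523. For HSPA1B in HPB-ALL the values were 2.64 and 1.91 in controls and 0.798 and 4.61 in targeted libraries. HSPA1B was higher in all targeted libraries of CUTLL1 and KOPTK1 than in their controls, and nearly absent in HPB-ALL, where the groups overlapped. HSPA1B rose with ASOs by 0.76 on the log2 scale ± 0.11 (limma adjusted p = 0.000856). With guides over 3 lines the value was 0.43 ± 0.3 (limma adjusted p = 0.234). On CUTLL1 and KOPTK1 guide libraries alone, a choice made after seeing the data, it was 0.77 (limma adjusted p = 0.000399), and edgeR and DESeq2 on all guide libraries also called it, each at 0.77. It was also called without HPB-ALL guide 1 (0.78, limma adjusted p = 0.000412), under quantile scaling (0.73, limma adjusted p = 0.0466) and with a pseudocount of 5 (0.46, limma adjusted p = 0.0495). Without the CUTLL1 guide control it was 0.22, and without HPB-ALL guide 2 it was 0.23. HSPA1A had at most 1.15 normalised counts in CUTLL1 and 0.769 in HPB-ALL. In KOPTK1 it read 14.5 and 26.7 in controls and 45.6, 38, 34.2 and 50.9 in targeted libraries, without overlap, and it was too low to be tested.

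The other HSP70-like genes moved little. HSPH1, an HSP110 protein that acts as an exchange factor, rose by 0.19 on the log2 scale with guides (limma adjusted p = 0.000302) and by 0.13 with ASOs (limma adjusted p = 0.00715), the latter lost under quantile scaling (0.03) and smaller under total-count scaling (0.08). HSPA4, its relative, had a guide value of 0.00 over the lines, from -0.16 in CUTLL1 to 0.15 in HPB-ALL. With ASOs HSPA4 fell by 0.13 on the log2 scale (limma adjusted p = 0.017), a call lost without CUTLL1 ASO 1 (-0.11) or the CUTLL1 ASO control (-0.08). HSPA14, an HSP70 that works at the ribosome with DNAJC2, was called with neither method (0.04 with guides, -0.03 with ASOs). HSPA14 was called higher without the CUTLL1 guide control (0.12) and lower without the KOPTK1 ASO control (-0.13).

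Among the J proteins, DNAJB4 had the largest rise. DNAJB4 went from 641 and 646 in CUTLL1 controls to 1194, 1219, 1164 and 1052 in targeted libraries. The KOPTK1 values of DNAJB4 were 449 and 483 in controls and 948, 1097, 881 and 979 after targeting. The HPB-ALL values of DNAJB4 were 490.3 and 556 and, after targeting, 1063 and 1088. Every targeted library lay above every control of its line. DNAJB4 rose with guides, by a log2 fold change of 1.04 ± 0.069 (SE; limma adjusted p = 1.01e-06), and with ASOs, by 0.86 ± 0.08 (limma adjusted p = 0.00015). The difference among lines did not pass the F test (limma adjusted p = 0.348).

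DNAJB6 also rose, to a degree that differed by line. DNAJB6 read 5803 and 5919 in the CUTLL1 controls and 6653, 6496, 6691 and 6578 in the targeted libraries. In KOPTK1 DNAJB6 read 10221 and 10219 against 14010.1, 13995, 14383 and 14413. In HPB-ALL DNAJB6 read 5481 and 5595 against 9236 and 9230.5. The rise was small in CUTLL1 and largest in HPB-ALL, and no targeted library overlapped its controls. DNAJB6 rose with guides, by a log2 fold change of 0.50 ± 0.08 (SE; limma adjusted p = 0.000374), and with ASOs, by 0.33 ± 0.071 (limma adjusted p = 0.00621). The ASO value was 0.50 without the CUTLL1 ASO control and 0.16 without that of KOPTK1. DNAJB1, the class B partner of HSP70 in disaggregation, rose as well, by 0.45 with guides (limma adjusted p = 0.000313) and 0.32 with ASOs (limma adjusted p = 0.000624). The class A proteins DNAJA1 and DNAJA2 passed neither pooled test, with guide values of 0.10 and -0.01 and ASO values of -0.02 and -0.13. Without the CUTLL1 guide control both were called higher with guides, DNAJA1 at 0.19 (limma adjusted p = 0.0044) and DNAJA2 at 0.10 (limma adjusted p = 0.0427). Without the KOPTK1 ASO control both were called lower with ASOs, DNAJA1 at -0.08 and DNAJA2 at -0.27. DNAJA1 was also called lower with ASOs under quantile scaling (-0.08), and DNAJA2 under total-count scaling (-0.18).

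DNAJC2 and DNAJC7 fell. DNAJC2 is the J protein of the ribosome-associated complex. The CUTLL1 controls held 3850.0 and 3819.6 normalised counts of DNAJC2, and the targeted libraries 2226, 2359, 2309.7 and 2289. For DNAJC2 in KOPTK1 the controls held 3718 and 3743 and the targeted libraries 1958, 1864, 1909 and 1769. For DNAJC2 in HPB-ALL the values were 3960.5 and 3975 in controls and 1949 and 1909 in targeted libraries. Targeted libraries lay far below the controls in each line, without overlap. DNAJC2 fell with guides, with a log2 fold change of -0.93 ± 0.053 (SE; limma adjusted p = 4.37e-07), and with ASOs, with -0.88 ± 0.073 (limma adjusted p = 8.97e-05).

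DNAJC7 carries repeats that dock to both HSP70 and HSP90. DNAJC7 went from 6523 and 6306 in CUTLL1 controls to 3748, 3857, 3791 and 4022 in targeted libraries. The KOPTK1 values of DNAJC7 were 5264 and 5319.9 in controls and 3488, 3287, 3393 and 3268 after targeting. The HPB-ALL values of DNAJC7 were 5009.7 and 5279 and, after targeting, 2788 and 2883. The groups did not overlap in any line. DNAJC7 fell with guides, with a log2 fold change of -0.77 ± 0.045 (SE; limma adjusted p = 5.44e-07), and with ASOs, with -0.68 ± 0.039 (limma adjusted p = 2.45e-05). In the GENCODE 29 annotation 18.8% of the exon length of DNAJC7 lies opposite CNP and NKIRAS2. The library kit keeps strand, but whether counting used it is not given in the sources used here, so reads of opposite genes may not be told apart.

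The nucleotide exchange factors split. HSPBP1, which loosens the nucleotide lobe of HSP70, had the largest fall of all members. HSPBP1 read 4196 and 4178 in the CUTLL1 controls and 2314, 2225, 2335 and 2467 in the targeted libraries. In KOPTK1 HSPBP1 read 3296 and 3124 against 1473, 1363, 1556 and 1569.7. In HPB-ALL HSPBP1 read 2708 and 2599.9 against 1224 and 1101. Controls were highest in CUTLL1 and lowest in HPB-ALL, and all targeted libraries fell short of their controls. HSPBP1 fell with guides, with a log2 fold change of -1.11 ± 0.065 (SE; limma adjusted p = 5.12e-07), and with ASOs, with -0.90 ± 0.056 (limma adjusted p = 3.21e-05).

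BAG3 rose instead. The CUTLL1 controls held 1764 and 1761 normalised counts of BAG3, and the targeted libraries 2229.5, 1908, 2291 and 2294. For BAG3 in KOPTK1 the controls held 2607 and 2602 and the targeted libraries 3469, 3334, 3546 and 3481. For BAG3 in HPB-ALL the values were 621 and 596 in controls and 996 and 982 in targeted libraries. All 10 targeted libraries were above their controls, HPB-ALL from the lowest level. BAG3 rose with guides, by a log2 fold change of 0.47 ± 0.083 (SE; limma adjusted p = 0.000665), and with ASOs, by 0.41 ± 0.037 (limma adjusted p = 0.00013). BAG1 fell, with -0.30 with guides (limma adjusted p = 0.00105) and -0.33 with ASOs (limma adjusted p = 0.000755). ST13, which steadies the ADP-bound state of HSP70, had a guide value of -0.07 (limma adjusted p = 0.312), called at -0.14 without the KOPTK1 guide control. It fell by 0.13 with ASOs (limma adjusted p = 0.0259), a call lost without CUTLL1 ASO 2 (-0.12), KOPTK1 ASO 1 (-0.11) or the KOPTK1 ASO control (-0.10).

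**Figure D3:**
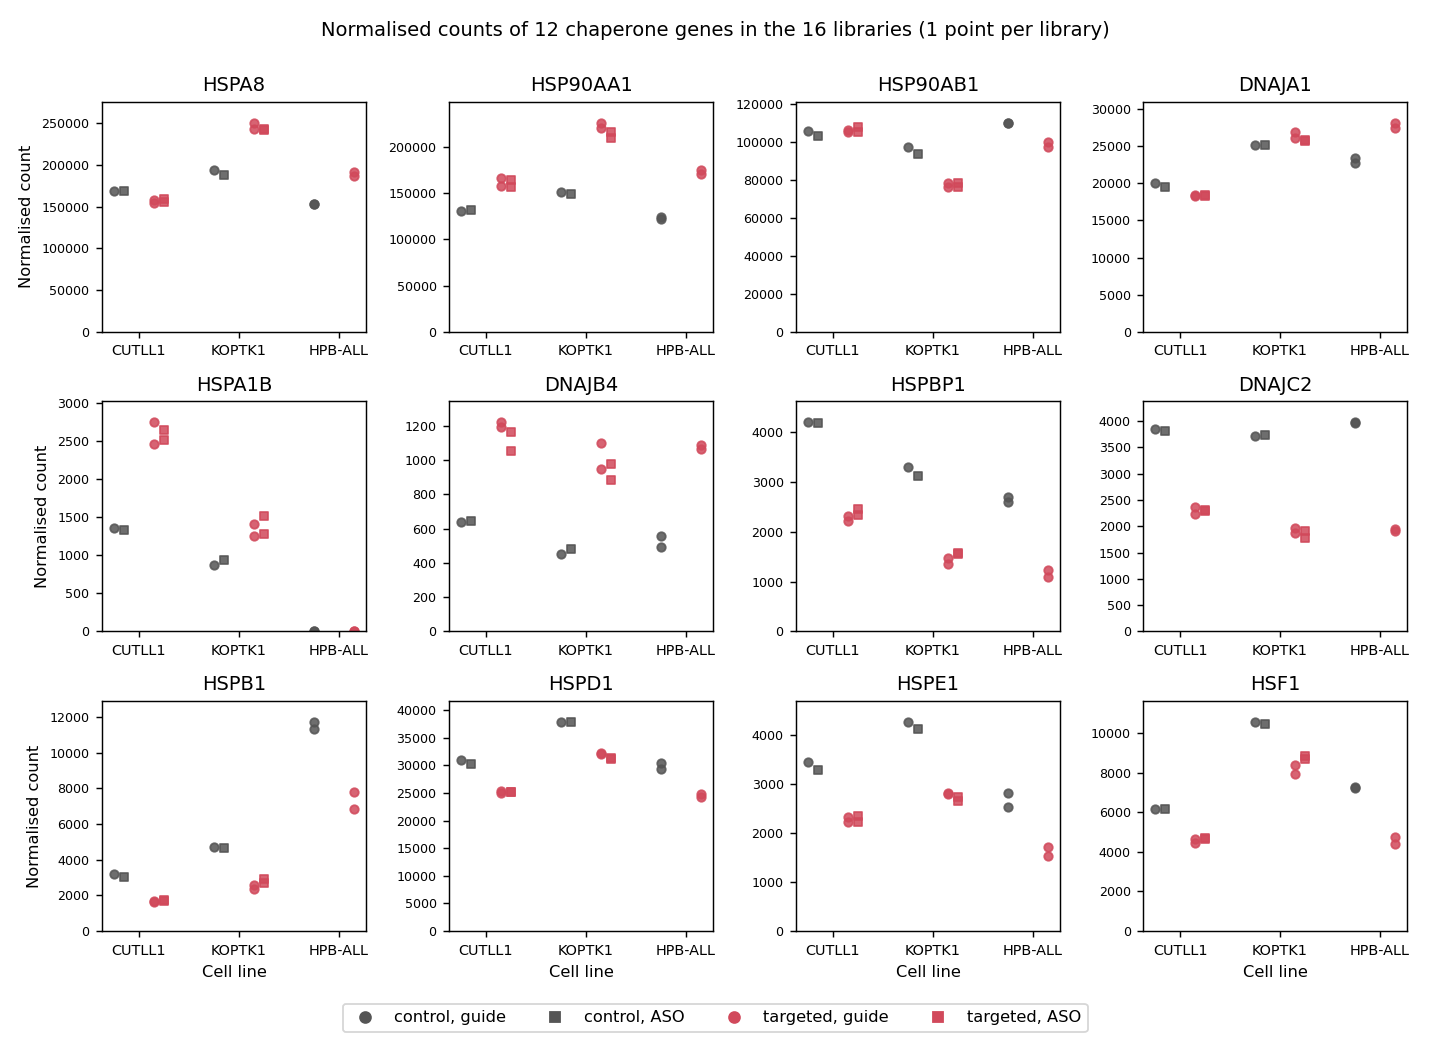
Normalised counts of 12 genes in the 16 libraries (linear axes from 0), by line, with controls in grey, targeted libraries in red, guide libraries as circles and ASO libraries as squares. HSPA8 is lower in targeted CUTLL1 libraries and higher in the other lines, and HSPA1B is near 0 in HPB-ALL.

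The HSP90 pair diverged: HSP90AA1, the more inducible form, rose, while HSP90AB1, the constitutive form, was not called higher in any line. HSP90AA1 went from 131185 and 131836 in CUTLL1 controls to 157724, 165987, 157013 and 163870.1 in targeted libraries. The KOPTK1 values of HSP90AA1 were 151179 and 149257 in controls and 220722, 226330.3, 210288 and 216525 after targeting. The HPB-ALL values of HSP90AA1 were 122345 and 124658 and, after targeting, 170773 and 175425. The targeted HSP90AA1 values were above the controls in every line. HSP90AA1 rose with guides, by a log2 fold change of 0.46 ± 0.045 (SE; limma adjusted p = 1.44e-05), and with ASOs, by 0.40 ± 0.057 (limma adjusted p = 0.00101). Under quantile scaling the rise was 0.25 with guides and 0.10 with ASOs, and the ASO call was lost (limma adjusted p = 0.0725).

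HSP90AB1 read 105929 and 103322 in the CUTLL1 controls and 105482, 106643, 105562 and 108214 in the targeted libraries. In KOPTK1 HSP90AB1 read 97398 and 93704 against 78590.0, 76300.4, 78485 and 76568. In HPB-ALL HSP90AB1 read 110264 and 110229 against 100187 and 97273. The 2 CUTLL1 groups overlapped for HSP90AB1, while in KOPTK1 and HPB-ALL all targeted libraries were lower. HSP90AB1 fell with guides by 0.16 ± 0.05 on the log2 scale (limma adjusted p = 0.0155), a call lost without the KOPTK1 guide control (-0.09) and larger under quantile scaling (-0.39). With ASOs the value was -0.11 ± 0.07 (limma adjusted p = 0.203). Quantile scaling gave -0.41 with ASOs, a call (limma adjusted p = 0.00831), as did leaving out the CUTLL1 ASO control (-0.27), while without the KOPTK1 ASO control the value was 0.05 and not called. Under quantile scaling HSP90AB1 was also called lower within CUTLL1, by guides (-0.19) and by ASOs (-0.14). The ratio of HSP90AA1 to HSP90AB1 counts, which a scaling factor per library cannot move, was 1.24 to 1.28 in CUTLL1 controls and 1.49 to 1.56 in targeted libraries. In KOPTK1 it was 1.55 to 1.59 against 2.68 to 2.97, and in HPB-ALL 1.11 to 1.13 against 1.70 to 1.80. The ratio was higher in every targeted library than in any control of its line.

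FKBP4, an immunophilin of steroid receptor complexes, had the lowest log2 fold changes of the HSP90 co-chaperones among the 42 genes. The CUTLL1 controls held 17730.1 and 17443 normalised counts of FKBP4, and the targeted libraries 11306, 11141, 11422 and 11768. For FKBP4 in KOPTK1 the controls held 16059 and 15895 and the targeted libraries 10145, 10003, 10529 and 10276. For FKBP4 in HPB-ALL the values were 18531 and 17979 in controls and 15721 and 15106 in targeted libraries. All targeted libraries were below their controls, by least in HPB-ALL. FKBP4 fell with guides, with a log2 fold change of -0.49 ± 0.073 (SE; limma adjusted p = 0.000242), and with ASOs, with -0.60 ± 0.03 (limma adjusted p = 1.55e-05).

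AHSA1, which speeds the ATPase of HSP90, fell with ASOs by 0.20 on the log2 scale (limma adjusted p = 0.00195) and with guides by 0.14 (limma adjusted p = 0.0419). The guide call of AHSA1 was lost without any 1 of the 6 CUTLL1 and KOPTK1 guide libraries, with values of -0.14 to -0.09, and with edgeR (-0.13). Quantile scaling (-0.16), the replicate block (-0.12) and dropping the filter (-0.14) also ended it. STIP1, which bridges HSP70 and HSP90, rose with guides by 0.14 on the log2 scale (limma adjusted p = 0.028). That call was lost without any 1 of the HPB-ALL libraries, the KOPTK1 control or KOPTK1 guide 1, with values of 0.12 to 0.15. It was lost as well under quantile scaling (0.14), under total-count scaling (0.13) and without HPB-ALL (0.04). With ASOs STIP1 was at 0.08 and not called, but was called at 0.17 without the CUTLL1 ASO control. PTGES3, the p23 protein that holds HSP90 closed, rose with ASOs by 0.13 on the log2 scale (limma adjusted p = 0.0446), a call lost without any 1 of 5 libraries: the CUTLL1 ASO pair (0.15 and 0.14), the KOPTK1 ASO pair (0.13 and 0.11) and the KOPTK1 ASO control (0.04). Without the CUTLL1 ASO control the value was 0.22. Quantile scaling (0.07), total-count scaling (0.09) and the replicate block (0.11) also ended the ASO call of PTGES3. So did edgeR (0.15) and dropping the filter (0.13). With guides PTGES3 was at 0.17 (limma adjusted p = 0.0699), and was called under quantile scaling (0.18), with edgeR (0.18), without HPB-ALL (0.29), and without HPB-ALL control 2 or HPB-ALL guide 1 (0.21 each). CHORDC1, a zinc-binding partner of HSP90, was called with neither method, with -0.03 for guides and -0.13 for ASOs. The ASO value was called under total-count scaling (-0.18) and without the KOPTK1 ASO control (-0.24).

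HSPB1 (HSP27), the small heat shock protein that holds unfolded proteins in soluble form, fell in all lines. HSPB1 went from 3212 and 3038 in CUTLL1 controls to 1715, 1609.6, 1711 and 1749 in targeted libraries. The KOPTK1 values of HSPB1 were 4725 and 4665 in controls and 2563, 2388, 2916 and 2725 after targeting. The HPB-ALL values of HSPB1 were 11729 and 11344 and, after targeting, 7797 and 6868. HPB-ALL controls were the highest, and the targeted libraries of each line were below their own controls. HSPB1 fell with guides, with a log2 fold change of -0.82 ± 0.064 (SE; limma adjusted p = 2.98e-06), and with ASOs, with -0.77 ± 0.046 (limma adjusted p = 2.68e-05). HSPB11, which carries a heat shock name but is a part of the transport machinery of cilia, rose by 0.31 on the log2 scale with guides (limma adjusted p = 0.000802) and 0.22 with ASOs (limma adjusted p = 0.00163).

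The 2 heat shock factors moved in opposite directions. HSF1 read 6182 and 6172 in the CUTLL1 controls and 4642, 4460.4, 4665 and 4685 in the targeted libraries. In KOPTK1 HSF1 read 10563 and 10459 against 8393, 7955, 8689 and 8847. In HPB-ALL HSF1 read 7251 and 7278 against 4754 and 4408. HSF1 was highest in KOPTK1, and its targeted libraries were below the controls in every line. HSF1 fell with guides, with a log2 fold change of -0.52 ± 0.055 (SE; limma adjusted p = 2.16e-05), and with ASOs, with -0.33 ± 0.041 (limma adjusted p = 0.000534). HSF2, which can pair with HSF1 on heat shock elements, rose by 0.24 on the log2 scale with guides (limma adjusted p = 0.000751) and 0.20 with ASOs (limma adjusted p = 0.0119), the latter 0.11 without the KOPTK1 ASO control. These are RNA levels, and HSF1 activity is set largely after translation.

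All 6 mitochondrial genes fell with guides and with ASOs, with a median of -0.37 and -0.28 on the log2 scale. Over all genes 35% fell with guides and 33.2% with ASOs. Fitted line by line, all 6 fell with guides in each line and with ASOs in CUTLL1, but 4 of 6 with ASOs in KOPTK1, where DNAJA3 was at -0.11 (limma adjusted p = 0.115) and TRAP1 at -0.12 (limma adjusted p = 0.0747). HSPD1 (HSP60) forms the barrel and HSPE1 (HSP10) the lid of the mitochondrial chaperonin, from the shared promoter printed above. HSPD1 read 30869.5 and 30317 in the CUTLL1 controls and 24996, 25284, 25218 and 25248 in the targeted libraries. In KOPTK1 HSPD1 read 37784 and 37831 against 32254, 32116, 31209 and 31301. In HPB-ALL HSPD1 read 29309 and 30438 against 24199 and 24878. HSPD1 was below its controls in all 10 targeted libraries. HSPD1 fell with guides, with a log2 fold change of -0.27 ± 0.028 (SE; limma adjusted p = 1.81e-05), and with ASOs, with -0.27 ± 0.026 (limma adjusted p = 0.000174).

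The CUTLL1 controls held 3435 and 3275 normalised counts of HSPE1, and the targeted libraries 2319, 2215, 2218 and 2350.4. For HSPE1 in KOPTK1 the controls held 4259.5 and 4115 and the targeted libraries 2814, 2792, 2742 and 2654. For HSPE1 in HPB-ALL the values were 2815 and 2529 in controls and 1720.1 and 1533 in targeted libraries. HSPE1 likewise had no targeted library within the range of its controls, and its fall was the larger of the pair. HSPE1 fell with guides, with a log2 fold change of -0.65 ± 0.051 (SE; limma adjusted p = 2.78e-06), and with ASOs, with -0.56 ± 0.045 (limma adjusted p = 7.44e-05). The ratio of HSPD1 to HSPE1 counts was 8.99 to 9.26 in CUTLL1 controls and 10.7 to 11.4 in targeted libraries. In KOPTK1 it was 8.87 to 9.19 against 11.4 to 11.8, and in HPB-ALL 10.4 to 12.03 against 14.1 to 16.2. Every targeted library had a higher ratio than its controls. The counts of HSPE1 are less certain, since its exons overlap HSPE1-MOB4 on the same strand (18.6%) and HSPD1 on the other (16.4%), and 26 pseudogenes carry its name, against 17 for HSPD1.

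HSPA9 (mortalin), the mitochondrial HSP70 that pulls in imported proteins, fell, with log2 fold changes of -0.37 with guides (limma adjusted p = 1.14e-05) and -0.29 with ASOs (limma adjusted p = 0.000201). GRPEL1, its exchange factor, fell, with log2 fold changes of -0.37 (limma adjusted p = 0.000372) and -0.46 (limma adjusted p = 0.00176), the latter -0.30 without the CUTLL1 ASO control. DNAJA3, its J protein, fell, with log2 fold changes of -0.31 (limma adjusted p = 0.000257) and -0.17 (limma adjusted p = 0.0115), the latter lost without the CUTLL1 ASO control (-0.11). TRAP1, the mitochondrial HSP90, fell, with log2 fold changes of -0.51 (limma adjusted p = 0.000565) and -0.26 (limma adjusted p = 0.0109), by guides most in HPB-ALL (-0.76) and least in KOPTK1 (-0.18). With the replicate block, which for ASOs sets ASO 1 alone against the control, 4 of the 6 mitochondrial genes were called with ASOs. The ASO value of TRAP1 was -0.12 without the CUTLL1 ASO control and -0.40 without that of KOPTK1, each the effect in the other line. TRAP1 overlaps DNASE1 on the opposite strand over 28.0% of its exon length. Summed over the 6 genes, mitochondrial chaperones took 0.185% ± 0.0017 of all counts in CUTLL1 controls (SD, n = 2) and 0.145% ± 0.0011 in targeted libraries (n = 4). In KOPTK1 the shares were 0.185% ± 0.00064 and 0.148% ± 0.0011, and in HPB-ALL 0.172% ± 0.0025 and 0.131% ± 0.00082 (n = 2).

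The CCT ring is built of 8 different subunits in 1 complex. With guides CCT5, CCT3, CCT4, CCT7 and CCT6A fell, and TCP1, CCT2 and CCT8 did not pass the test, and the median of the 8 was -0.12. With ASOs CCT5, CCT3, CCT4, CCT6A and TCP1 fell, and the median was -0.14. The other CCT genes, CCT2, CCT7 and CCT8, were also called lower with ASOs under quantile scaling (-0.15, -0.16 and -0.13) and under total-count scaling (-0.11, -0.13 and -0.13). With guides CCT8 and TCP1 were called lower under total-count scaling (-0.09 and -0.13) and without the KOPTK1 guide control (-0.09 and -0.17), and CCT8 without KOPTK1 guide 1 (-0.08). CCT5 went from 34385 and 33630.5 in CUTLL1 controls to 23063, 23632, 23654 and 23927 in targeted libraries. The KOPTK1 values of CCT5 were 29365 and 29598 in controls and 21646, 21253, 21419.7 and 20954 after targeting. The HPB-ALL values of CCT5 were 28622 and 29219.9 and, after targeting, 19457 and 19679.7. CCT5 was lower in all 10 targeted libraries. CCT5 fell with guides, with a log2 fold change of -0.53 ± 0.03 (SE; limma adjusted p = 4.69e-07), and with ASOs, with -0.49 ± 0.028 (limma adjusted p = 2.29e-05). AC012640.4 lies opposite 43.6% of the exon length of CCT5.

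CCT3 fell, with log2 fold changes of -0.34 with guides (limma adjusted p = 2.33e-05) and -0.35 with ASOs (limma adjusted p = 0.000141), and CCT4 with -0.22 (limma adjusted p = 0.0001) and -0.22 (limma adjusted p = 0.000731). CCT2 read 26918 and 25833 in the CUTLL1 controls and 23467, 23759, 23339 and 24099 in the targeted libraries. In KOPTK1 CCT2 read 29279 and 28934 against 29742, 29352, 28729 and 28539. In HPB-ALL CCT2 read 22223 and 22571 against 22740.3 and 23216. The CCT2 groups overlapped in KOPTK1 and were apart in CUTLL1, where targeted values were lower, and in HPB-ALL, where they were slightly higher, and the guide value was -0.03 over the lines, from -0.19 in CUTLL1 to 0.04 in HPB-ALL.

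The CUTLL1 controls held 25328 and 24836 normalised counts of TCP1, and the targeted libraries 20604, 20632, 20861 and 20599.8. For TCP1 in KOPTK1 the controls held 27601 and 28356 and the targeted libraries 28177, 28787, 28045 and 27239.7. For TCP1 in HPB-ALL the values were 22489 and 22951 in controls and 21168 and 21501 in targeted libraries. TCP1 was lower in targeted libraries of CUTLL1 and HPB-ALL and overlapped in KOPTK1. With ASOs TCP1 fell by 0.15 on the log2 scale (limma adjusted p = 0.043), a call lost with edgeR and DESeq2 and without CUTLL1 ASO 1 (-0.14), CUTLL1 ASO 2 (-0.13), KOPTK1 ASO 2 (-0.16) or the CUTLL1 ASO control (-0.04). It was -0.26 without the KOPTK1 ASO control. ACAT2 lies opposite 15.9% of the exon length of TCP1. As a share of all counts, the 8 CCT genes took 0.477% ± 0.0072 in CUTLL1 controls (SD, n = 2) and 0.391% ± 0.0040 in targeted libraries (n = 4). The KOPTK1 shares were 0.471% ± 0.0021 in controls and 0.409% ± 0.0057 in targeted libraries. For HPB-ALL they were 0.432% ± 0.0057 and 0.384% ± 0.0033 (n = 2).

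Fitted line by line, with a lone control assumed to vary like the other groups, CUTLL1 guides changed 35 of 41 members, 8 upward and 27 downward, against 62.3% of all genes (30.8% higher, 31.5% lower). KOPTK1 guides changed 30 (11 up, 19 down), against 64.1% of genes (31% higher, 33.1% lower). HPB-ALL guides changed 35 (14 up, 21 down), against 70.9% (34% higher, 36.9% lower). CUTLL1 ASOs changed 35 (8 up, 27 down), against 62.3% (30.5% higher, 31.8% lower), and KOPTK1 ASOs 30 (11 up, 19 down), against 63.4% (30.6% higher, 32.8% lower). The CCT genes show the spread: with guides all 8 fell in CUTLL1, 4 in KOPTK1 and 6 in HPB-ALL, and none rose. In the HSP70 system 5 rose and 9 fell in CUTLL1, while 10 rose and 5 fell in HPB-ALL. The summed HSP70 system took 0.625% ± 0.0016 of all counts in CUTLL1 controls (SD, n = 2) and 0.576% ± 0.0052 after targeting (n = 4), but 0.560% ± 0.0060 and 0.669% ± 0.0031 in HPB-ALL (n = 2), with HSPA8 as its most abundant gene.

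The guide effect differed among the lines for 29 of 41 members (moderated F test of limma), against 43.7% of all genes. They were 23 of 27 tested cytosolic genes, with all 7 of the HSP90 system, 3 of 6 mitochondrial and 3 of 8 CCT genes. The smallest p-values belonged to DNAJB6, FKBP4, DNAJA1, HSPA8 and DNAJB1. DNAJB6 went from 0.18 in CUTLL1 over 0.45 in KOPTK1 to 0.74 in HPB-ALL (F = 99.9, limma adjusted p = 4.87e-06). FKBP4 fell in CUTLL1 (-0.66) and KOPTK1 (-0.67) and less in HPB-ALL (-0.24; F = 56.6, limma adjusted p = 4.04e-05). DNAJB1 rose by 0.24 on the log2 scale in CUTLL1, 0.33 in KOPTK1 and 0.68 in HPB-ALL (F = 41.7, limma adjusted p = 0.000122). HSPD1 and HSPE1 did not pass this test (limma adjusted p = 0.453 and 0.493).

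Calls of opposite sign between lines were made for 5 members (12.2%), against 4.64% of all genes: HSPA8, DNAJA1, DNAJA2, HSPA4 and HSPA14. Each fell in CUTLL1 and rose in HPB-ALL and only HSPA8 was also called in KOPTK1. DNAJA1, the class A partner of HSPA8, had guide effects of -0.13 in CUTLL1, 0.08 in KOPTK1 and 0.27 in HPB-ALL (F = 46.2, limma adjusted p = 8.37e-05). DNAJA2 had -0.28, 0.05 and 0.13 in the same order (F = 30.7, limma adjusted p = 0.000349). HSPA4 had -0.16, -0.04 and 0.15 (F = 19.5, limma adjusted p = 0.00158), and HSPA14 -0.15, 0.04 and 0.16 (F = 25.7, limma adjusted p = 0.000629). In CUTLL1 and HPB-ALL these signs were the same under quantile and total-count scaling for the 5 genes.

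Read library by library, 8 members were above every control of their own experiment in all 10 targeted libraries (19.5%, against 27.9% of all genes): HSPH1, BAG3, DNAJB1, DNAJB4, DNAJB6, HSP90AA1, HSPB11 and HSF2. Another 18 were below in all 10 (43.9%, against 28.8%). With guides, 17 members were called lower in all 3 lines (41.5%, against 22.6% of all genes) and 8 higher in all 3 (19.5%, against 21.6%).

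**Figure D4:**
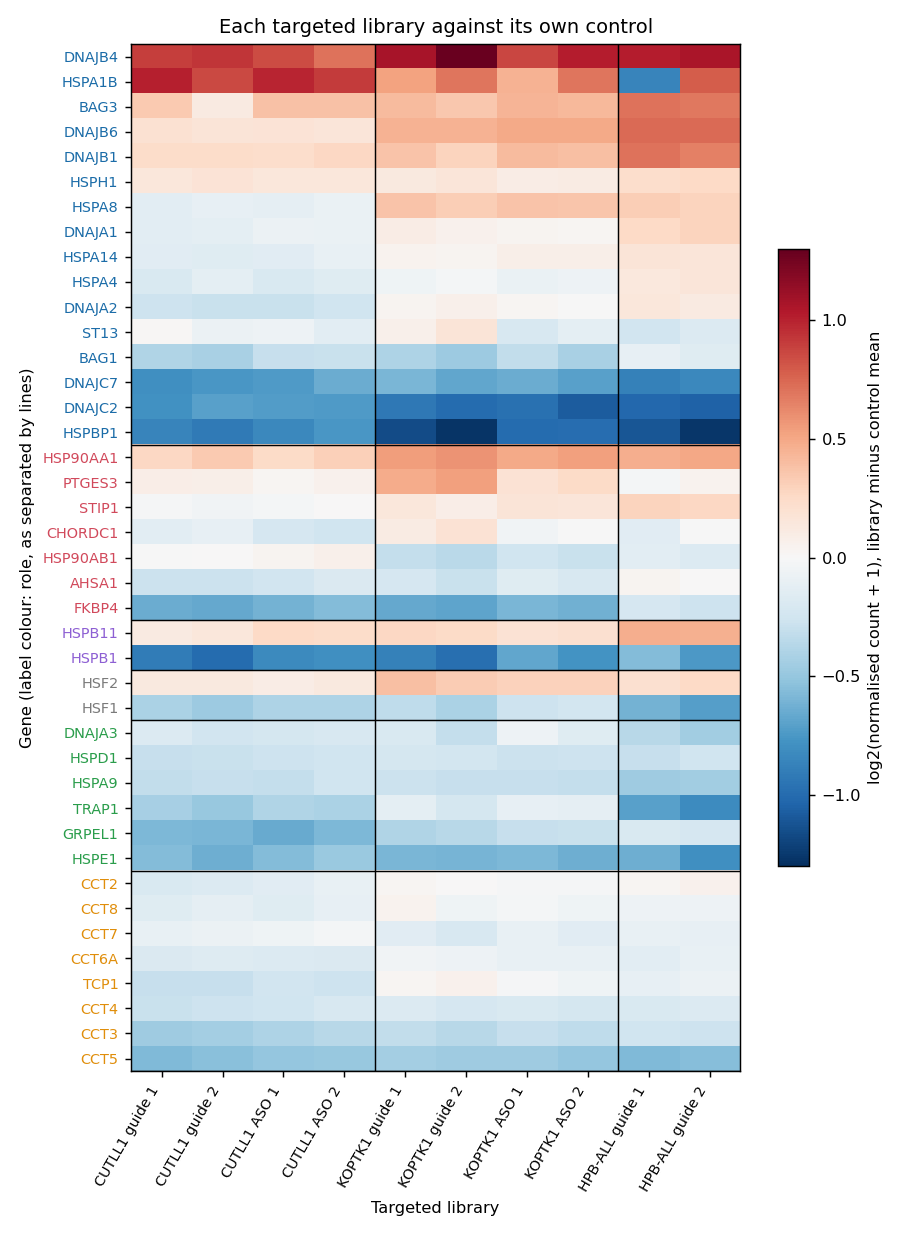
Difference of log2(normalised count + 1) between each targeted library and the mean control of its own experiment, for 41 genes grouped by role, with red for higher and blue for lower. The mitochondrial rows are blue in all 10 libraries, while the HSPA8 row changes from blue in CUTLL1 to red in KOPTK1 and HPB-ALL.

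Guides and ASOs were set against each other in CUTLL1 and KOPTK1. Their effects differed for 0 of 41 members by limma, edgeR and DESeq2 after adjustment, and at an unadjusted p under 0.05 for 5 members with limma, 6 with edgeR and 3 with DESeq2. Over all genes the adjusted count was 0 (0%) with limma, 0 with edgeR and 1 with DESeq2. The unadjusted counts were 1393 of 14020 genes (9.94%) with limma, 1426 of 14013 (10.2%) with edgeR and 617 of 14013 (4.4%) with DESeq2. The estimates for the members ran from -0.17 for HSPB1 (95% interval -0.34 to -0.01) to 0.19 for DNAJB4 (-0.05 to 0.42). For HSPA8 the interval was -0.11 to 0.07, for HSPD1 -0.07 to 0.08 and for CCT5 -0.09 to 0.06. For HSPA1B it was -0.99 to 1.02, too wide to bound a difference.

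Further genes of the same systems were read from lists by role. Of 25 tested cytosolic chaperones and co-chaperones outside the 42, 12 rose and 5 fell with guides (68% called, against 67.7% of all genes). DNAJC9, a J protein that is also a histone chaperone, rose by 0.69 on the log2 scale with guides and 0.66 with ASOs, and DNAJC17, linked to splicing, fell, with log2 fold changes of -1.44 and -1.48. DNAJC5, of synaptic and secretory vesicles, rose by 0.34 on the log2 scale and 0.38, and SGTB, a glutamine-rich co-chaperone, by 0.94 and 0.62. Of 19 further HSP90 co-chaperones, 4 rose and 10 fell with guides (73.7% called), with a median of -0.33, where 32.7% of all genes rose and 35% fell. UNC45A, which folds myosin with HSP90, rose by 0.93 on the log2 scale and 0.88 and RPAP3, of the R2TP complex, by 0.57 and 0.48. PPID, a cyclophilin, fell, with log2 fold changes of -0.55 and -0.59, and RUVBL1, an ATPase of R2TP, with -0.49 and -0.42.

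Of 13 genes in a list of prefoldin subunits and CCT cofactors, 4 rose and 5 fell with guides (69.2% called, against 67.7% of all genes). With ASOs 2 of them rose and 4 fell (46.2%, against 65%). PFDN6 fell, with log2 fold changes of -0.49 with guides and -0.47 with ASOs, PFDN4 with -0.62 and -0.61, and PFDN1 with -0.32 and -0.32, while TXNDC9 rose by 0.51 on the log2 scale and 0.28. Of 16 further mitochondrial chaperones and proteases, 4 rose and 8 fell with guides (75% called, against 67.7% of all genes). CLPP, the matrix protease, fell, with log2 fold changes of -1.48 with guides and -1.32 with ASOs, more than any of the 6 mitochondrial members. BCS1L, which assembles respiratory complex III, fell, with log2 fold changes of -0.66 and -0.57, and TIMM44, which tethers HSPA9 to the import channel, with -0.44 and -0.44. SPG7, a protease of the inner membrane, rose by 0.44 on the log2 scale and 0.54. The 16 genes named from these lists passed the test with both methods, with limma adjusted p-values of at most 0.0237.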

How the data were processed

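The deposited table holds gene counts divided by size factors, with no stated transformation, and its values are used here as a signal per gene that the authors had normalised. Per the submitters' processing notes, reads were handled with STAR 1.4.2 and DESeq2 on hg19. For the counting step and its strand setting, no detail was given in the sources used here. Whole reads were recovered from the step of the values in 15 of 16 libraries (100% of values whole within 1e-06 of a step), while in CUTLL1 ASO 1 the step was too near 1 to check. No column was left unused.

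Tests used limma 3.58.1 in R 4.3.3 (empirical Bayes with intensity trend, two-sided) on log2(normalised count + 1), for genes with a mean of 20 or more, with Benjamini-Hochberg adjustment over all genes tested and a threshold of 0.05. A term for the line entered the guide and ASO comparisons, and 1 fit of 10 group means gave the values by line, the F tests and guides minus ASOs. The procedure was tested on simulated data. Alternatives were a pseudocount of 5, other filters (a mean of 100, or none), quantile and total-count scaling, a replicate term, edgeR 4.0.16 and DESeq2 1.42.0 on recovered reads, and leaving out each library. A guide fit without HPB-ALL was added after seeing the data.

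Values in every library are given for the 12 members with the largest mean log2 fold change called in both comparisons and of the same sign, and for HSPA1A, HSPA1B, HSPA8, HSP90AA1, HSP90AB1, HSF1, HSPD1, HSPE1, CCT2 and TCP1. From each F test the 5 members with the smallest p are named, and from each further list the 4 genes with the smallest guide p. The members and lists were chosen with earlier results of these data known. Exon lengths and overlaps came from GENCODE 29 and promoters from RefSeq, both on GRCh38, and no coordinate was carried over from hg19.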

Additional observations from a re-analysis of the deposited data

Results flagged for a closer look

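The guide effect differed between the cell lines for 29 members, by the moderated F test of limma over 14020 genes (adjusted p under 0.05). Values in brackets are F and then the log2 fold changes in CUTLL1, KOPTK1 and HPB-ALL. The effect changed sign between called lines for HSPA8 (F = 44; -0.12, 0.34 and 0.30), DNAJA1 (F = 46.2; -0.13, 0.08 and 0.27), DNAJA2 (F = 30.7; -0.28, 0.05 and 0.13), HSPA4 (F = 19.5; -0.16, -0.04 and 0.15) and HSPA14 (F = 25.7; -0.15, 0.04 and 0.16). It was upward in each line but of unequal size for DNAJB6 (F = 99.9; 0.18, 0.45 and 0.74), DNAJB1 (F = 41.7; 0.24, 0.33 and 0.68), BAG3 (F = 13.2; 0.23, 0.38 and 0.70), HSPB11 (F = 20.7; 0.13, 0.26 and 0.46), HSP90AA1 (F = 8.46; 0.30, 0.56 and 0.49) and HSF2 (F = 7.82; 0.13, 0.36 and 0.23). It was downward and smallest in size in HPB-ALL for FKBP4 (F = 56.6; -0.66, -0.67 and -0.24), BAG1 (F = 16; -0.41, -0.44 and -0.13), HSPB1 (F = 6.39; -0.95, -0.93 and -0.66), GRPEL1 (F = 27.4; -0.59, -0.38 and -0.21) and CCT3 (F = 9.06; -0.45, -0.34 and -0.26). It was downward in each line and not smallest in HPB-ALL for TRAP1 (F = 37.7; -0.46, -0.18 and -0.76), HSPA9 (F = 10.4; -0.31, -0.29 and -0.46), HSF1 (F = 13.1; -0.44, -0.37 and -0.67), DNAJC2 (F = 8.83; -0.75, -0.96 and -1.04) and HSPBP1 (F = 7.55; -0.89, -1.22 and -1.19). The others were PTGES3 (F = 41.6; 0.08, 0.51 and 0.01), TCP1 (F = 28.8; -0.30, 0.05 and -0.09), STIP1 (F = 24; -0.03, 0.12 and 0.28), AHSA1 (F = 21.4; -0.28, -0.25 and 0.02), HSP90AB1 (F = 19.5; 0.00, -0.33 and -0.16), CCT2 (F = 16.4; -0.19, 0.01 and 0.04), ST13 (F = 9.76; -0.03, 0.11 and -0.22) and CHORDC1 (F = 5.66; -0.12, 0.15 and -0.08). HPB-ALL had 2 guide controls, and CUTLL1 and KOPTK1 had 1 each.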

How the results depend on the processing

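Across the alternatives that changed the method or scaling, the guide comparison called 28 to 31 members and the ASO comparison 24 to 35, so these totals stayed within 1.5 times those reported. Counts by role moved more, as the CCT genes called lower with ASOs went from 5 to 8 under quantile and total-count scaling. Of the calls, 25 of 30 with guides and 22 of 31 with ASOs were kept in every setting run. The 5 guide calls not kept were AHSA1, CCT6A, HSP90AB1, HSPA8 and STIP1, and the 9 ASO calls were DNAJA3, HSF2, HSP90AA1, HSPA4, HSPH1, PTGES3, ST13, TCP1 and TRAP1. In at least 1 setting 8 further members gained a call with guides and 10 with ASOs. Quantile scaling moved the median of all genes with guides from -0.03 to 0.07. It reversed HSPA4 (-0.0081) and HSPA8 (-0.0025) with guides and HSPA8 (-0.12) with ASOs. Total-count scaling reversed HSPA4 with guides (-0.014). With edgeR the guide value of DNAJA2 was 0.00086, and with DESeq2 the ASO value of HSPA14 was 0.0045. Without HPB-ALL the guide values were -0.10 for HSPA4, -0.055 for HSPA14, 0.041 for ST13, -0.029 for DNAJA1 and 0.013 for CHORDC1. Each of these values without HPB-ALL is the mean of the guide effects in CUTLL1 and KOPTK1. The cause of the other reversals was not tested. Leaving out 1 library, values that changed sign ranged with guides from -0.045 to 0.099 for DNAJA2, -0.095 to 0.013 for CHORDC1, -0.053 to 0.027 for CCT2 and -0.027 to 0.072 for HSPA4. With ASOs they ranged from -0.13 to 0.074 for HSPA14, -0.083 to 0.034 for DNAJA1, -0.27 to 0.0063 for DNAJA2, -0.10 to 0.36 for HSPA8, -0.27 to 0.049 for HSP90AB1 and -0.0095 to 0.17 for STIP1. The ends of these ASO ranges came from leaving out the lone control of a line, and so are the effects in the other line.

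Replicate numbers showed no pairing in groups of more than 1 library, where same-numbered libraries had correlations of deviations from -0.014 to 0.065. The lone controls of CUTLL1 and KOPTK1 could not enter. Pairing of controls with their targeted libraries was thus checked in HPB-ALL only (-0.0056). With the number as a replicate block, 29 members were called with guides and 24 with ASOs. Both ASO controls are numbered 1, so the ASO fit with this block sets ASO 1 alone against the control. Its fewer calls thus come with fewer libraries in the contrast. The lone guide controls of CUTLL1 and KOPTK1 are also numbered 1. HSPA1A was too low to test, and in HPB-ALL the counts of both HSPA1A and HSPA1B were too low to show a change. With 1 control per experiment in CUTLL1 and KOPTK1, the spread of a lone control was taken from the other groups.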
